A study of Homo sapiens with 12 samples.

Results

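A set of 10 keratin genes, which encode filament proteins of epithelial cells, was followed across an RNA sequencing experiment on HGC-27, an established human gastric cancer cell line. They were picked by name as KRT4 together with the simple-epithelial, stratified-epithelial and hair-type keratins KRT7, KRT8, KRT10, KRT15, KRT18, KRT19, KRT80, KRT81 and KRT86, and each was found in the table by its Ensembl identifier. These 10 genes are part of the 55 keratin genes and the 20345 rows measured. The list was drawn up when results of the same data were already known, among them the level of KRT4 with and without GLUP, so levels and GLUP differences are given below as a description. Counts of GLUP calls stand beside the same counts over all rows and support nothing. The p-values given for members are for the TEAD4KO label and for its interaction with GLUP. That interaction is the difference of the GLUP effects in the genotypes, so it is built from the same GLUP values and is a description too.

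The experiment was designed to see how GLUP, a cyclic peptide built from the TEAD4-binding part of VGLL4, alters transcription and whether it does so without TEAD4, the transcription factor that Hippo signalling acts on. RNA came from 12 libraries in 4 groups of 3, namely WT cells (called NC in the labels) left untreated or given GLUP, and TEAD4KO cells left untreated or given GLUP. All 4 groups were HGC-27 cells kept in the same serum-containing medium, and the labels name no other allele or agent and do not say whether the TEAD4KO cells were 1 clone. Replicates were numbered 1, 2 and 3 without GLUP and 14, 15 and 16 with GLUP, and because the labels do not call them separate cultures, p-values measure only the spread between these libraries.

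Levels are in FPKM, a fragment count scaled by transcript length and by the mapped total of a library, which allows genes to be compared per length, while sequencing depth is unknown. The TEAD4 transcript itself was not lower in libraries labelled TEAD4KO, at 27.2 to 30.1 FPKM when untreated and 26.0 to 29.4 FPKM under GLUP, against 24.4 to 25.8 and 22.9 to 23.8 FPKM in WT. On the first principal component, which held 39.7% of the variance of log2(FPKM + 1), WT libraries lay from -16.2 to -3.71 and libraries labelled TEAD4KO from 9.91 to 19.8, except TEAD4KO untreated replicate 1 at -0.962 and TEAD4KO GLUP replicate 16 at -5.26. Member differences that moved markedly or changed call without these libraries are given in both ways. Leaving both of these libraries out together was not planned. Gastric epithelial markers were sparse, since 3 of 17 reached a mean of 1 FPKM (CDH1, MUC1 and CLDN7), TFF1, TFF2, GKN1 and GKN2 were listed at 0 in all 12 libraries, and EPCAM lay between 0.0280 and 0.169 FPKM. All 6 fibroblast markers passed that level, and VIM, the filament protein of mesenchymal cells, stood at 1238 to 1704 FPKM.

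Keratins are intermediate filament proteins that give epithelial cells mechanical strength. A filament is built from pairs of a type I (acidic) and a type II (basic or neutral) chain, and each kind of epithelium expresses its own pairs, so keratins are widely used to tell epithelia apart. KRT8 with KRT18 is the pair of simple epithelia such as the stomach lining, KRT4 with KRT13 that of the non-cornified layers of oesophagus and mouth, KRT1 with KRT10 that of the upper epidermis, and KRT81 and KRT86 are type II chains of the hair shaft. Filaments are anchored at desmosomes and hemidesmosomes.

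The genes sit in the 2 keratin clusters of the genome. On GRCh37, KRT4 (ENSG00000170477) occupies chr12:53200333-53207900 on the minus strand, KRT8 chr12:53290971-53343738 (minus), KRT80 chr12:52562780-52585798 (minus) and KRT7 chr12:52626304-52645970 (plus), and all of these encode type II chains. KRT81 (chr12:52679697-52685318, minus) and KRT86 (chr12:52643084-52702947, plus) are type II genes as well, and KRT86 overlaps KRT7 on the same strand and KRT81 on the opposite one. KRT18 is the type I gene that lies among them (chr12:53342655-53346690, plus), overlapping KRT8 on the opposite strand. Whether reads were counted by strand is not given in the sources used here, so reads from such overlaps cannot be told apart. The remaining type I genes are KRT10 (chr17:38974369-38978866), KRT15 (chr17:39669997-39678781) and KRT19 (chr17:39679869-39684560), all on the minus strand.

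The 250 bases before the transcription start are shown for the members that RefSeq's promoter table (GRCh38.p14) held, since GLUP was designed around a DNA-binding factor. KRT4 (chr12:52814117-52814366), KRT8 (chr12:52926470-52926719) and KRT10 (chr17:40822615-40822864) matched, 3 of 10 members, and each is written 5′ to 3′ on its own minus strand with TATAA in capitals. Shifted to GRCh37 by the offset of KRT4, the KRT8 window lies inside the span of KRT8 given above, not at its outer end. It thus belongs to a start within the gene, and other starts of KRT8 were not searched.
KRT4: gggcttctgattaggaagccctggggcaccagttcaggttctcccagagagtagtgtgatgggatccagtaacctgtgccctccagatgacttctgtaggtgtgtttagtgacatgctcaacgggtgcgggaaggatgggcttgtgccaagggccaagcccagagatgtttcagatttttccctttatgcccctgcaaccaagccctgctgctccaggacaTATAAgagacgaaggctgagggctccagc
KRT8: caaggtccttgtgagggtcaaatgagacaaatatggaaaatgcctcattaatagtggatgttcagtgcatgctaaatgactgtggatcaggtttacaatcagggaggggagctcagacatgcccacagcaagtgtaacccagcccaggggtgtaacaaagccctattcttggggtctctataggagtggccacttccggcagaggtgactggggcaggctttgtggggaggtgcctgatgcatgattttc
KRT10: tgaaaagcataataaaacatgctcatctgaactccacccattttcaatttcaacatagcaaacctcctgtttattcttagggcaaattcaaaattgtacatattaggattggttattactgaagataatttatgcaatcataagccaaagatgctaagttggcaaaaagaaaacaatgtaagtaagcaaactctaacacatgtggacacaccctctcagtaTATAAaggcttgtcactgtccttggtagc
The TEAD motif was searched as CATTCC on both strands (GGAATG on the other), and none of these 3 windows held it, while 11.9% of the 35116 promoters of the same length in that table did. The AP-1 motif TGANTCA was also found in none of the 3 and in 6.6% of all promoters. KRT4 and KRT10 each held TATAA at bases 29 to 25 before the start, and this KRT8 window held it on neither strand (TATAA or TTATA, in 18.9% of all promoters). These are matches of letters within a fixed window and not binding sites.

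Among the members, 5 of 10 averaged 1 FPKM or more across the libraries and could be tested, and no other keratin gene reached it. Their order by mean level was KRT4 (17.3 FPKM, above 81.3% of all rows), KRT10 (8.21 FPKM), KRT8 (5.78 FPKM), KRT80 (4.03 FPKM) and KRT7 (2.69 FPKM). In every library KRT4 was the highest of the 10. The ranges of neighbours in this order overlapped for KRT10 (6.51 to 10.3 FPKM) and KRT8 (3.78 to 9.13 FPKM), for KRT8 and KRT80 (2.99 to 5.33 FPKM), and for KRT80 and KRT7 (0.644 to 4.15 FPKM), but not for KRT4 (11.96 to 21.8 FPKM) and KRT10.

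**Figure D1:**
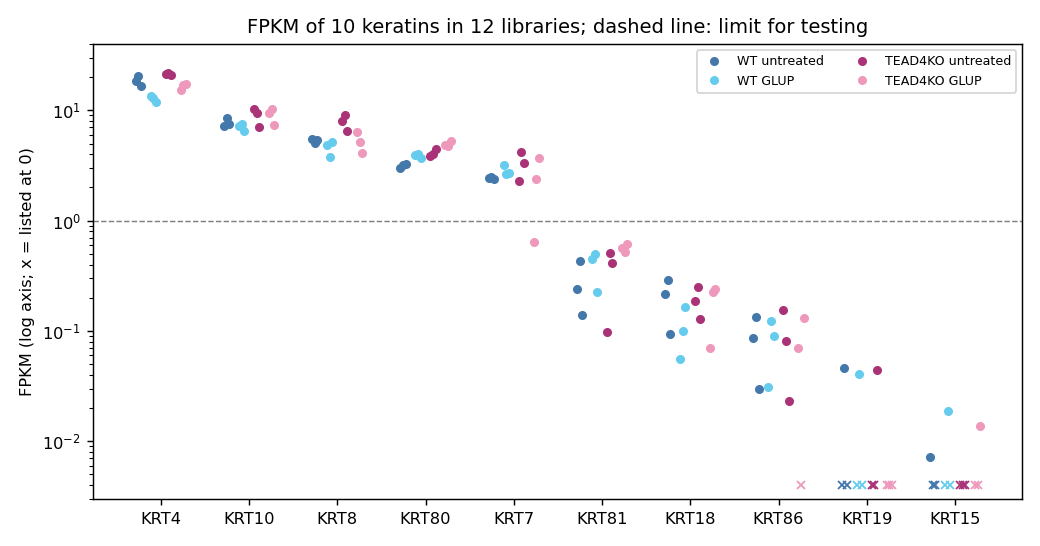
FPKM (log axis) of the 10 keratins in order of their mean level, with 1 point per library coloured by group, crosses for values listed at 0 and a dashed line at 1 FPKM. KRT4 lies highest, at 11.96 to 21.8 FPKM, and KRT81, KRT18, KRT86, KRT19 and KRT15 lie below the line in all 12 libraries.

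The low members included the usual partners of the high ones. KRT18, the type I partner of KRT8, lay between 0.0559 and 0.290 FPKM with a mean of 0.168 FPKM, and 30.1% of the 50-base windows of its transcripts also occur in transcripts of 45 other genes, KRT18P11 first, so its level depends on how shared reads were assigned. KRT19, a type I keratin of simple and ductal epithelia, was listed at 0 in 9 libraries and reached at most 0.0459 FPKM. KRT15, a type I keratin of basal cells in stratified epithelia, was also listed at 0 in 9 libraries, with a highest value of 0.0187 FPKM. The hair keratin KRT81 lay between 0.0971 and 0.619 FPKM (mean 0.393 FPKM) and KRT86 between 0 and 0.155 FPKM (mean 0.0793 FPKM). These near-identical hair genes cannot be well separated, because 44.6% of the KRT81 windows and 39.9% of the KRT86 windows recur in other genes, mostly in each other. For KRT4, KRT10 and KRT15 that share was 0%, and for KRT8, KRT19, KRT7 and KRT80 it was between 0.416% and 1.88%. By group, KRT81 was 0.270 ± 0.150 FPKM (SD, n = 3) in WT untreated, 0.392 ± 0.145 in WT GLUP, 0.341 ± 0.217 in TEAD4KO untreated and 0.569 ± 0.0506 in TEAD4KO GLUP. These KRT81 values overlapped between WT untreated, WT GLUP and TEAD4KO untreated. The 3 TEAD4KO GLUP libraries (0.518 to 0.619 FPKM) lay barely above the highest TEAD4KO untreated library (0.513 FPKM). KRT81 was below the level for testing and shares windows with other genes, so nothing is read from this.

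Of the 45 keratin genes outside the list, 24 were listed at 0 in all 12 libraries and none had a mean of 1 FPKM. The highest single value among them was 0.408 FPKM, for KRT17, a type I keratin of epidermal appendages. KRT13, the usual partner of KRT4, and KRT1, the usual partner of KRT10, were both at 0 in all 12. Squamous markers as a list (TP63, KRT5, KRT14 and KRT13) had 0 of 4 members at a mean of 1 FPKM, and their summed level ranged from 0.246 to 0.334 FPKM in WT untreated, 0.387 to 0.617 in WT GLUP, 0.223 to 0.368 in TEAD4KO untreated and 0.228 to 0.743 in TEAD4KO GLUP.

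Summed over the members, type II chains outweighed type I chains in every library. Type I sums ran from 6.67 to 10.6 FPKM, of which KRT10 was 96.2% to 99.3%, and type II sums ran from 23.9 to 39.7 FPKM. The ratio of type II to type I was 3.76 ± 0.224 (SD, n = 3) in WT untreated, 3.43 ± 0.258 in WT GLUP, 4.14 ± 0.743 in TEAD4KO untreated and 3.28 ± 0.720 in TEAD4KO GLUP. The ratio was 3.63 to 4.01 in WT untreated and 3.13 to 3.58 in WT GLUP without overlap, and it overlapped in every other pair of groups compared. KRT4 is part of each type II sum, at a mean of 18.6 of 29.8 FPKM in WT untreated and 12.8 of 24.6 FPKM in WT GLUP. Its GLUP levels were known when the list was drawn up, so nothing is read from a separation of the ratio or of the KRT4 share below. Without TEAD4KO untreated replicate 1 and TEAD4KO GLUP replicate 16 the ratios under that label were 4.06 and 4.92 untreated and 2.90 and 2.84 with GLUP. Leaving these libraries out was not planned, and too few remain for a lack of overlap to be read. KRT4 made up 49.0 ± 1.96% of the summed FPKM of all 10 members in WT untreated, 40.2 ± 0.957% in WT GLUP, 46.3 ± 2.30% in TEAD4KO untreated and 42.6 ± 1.78% in TEAD4KO GLUP. Its share in WT untreated libraries (46.9% to 50.6%) did not overlap that in WT GLUP libraries (39.1% to 40.99%), whereas under the TEAD4KO label untreated (44.1% to 48.7%) and GLUP (41.1% to 44.6%) libraries overlapped, the highest GLUP value being that of replicate 16.

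**Figure D2:**
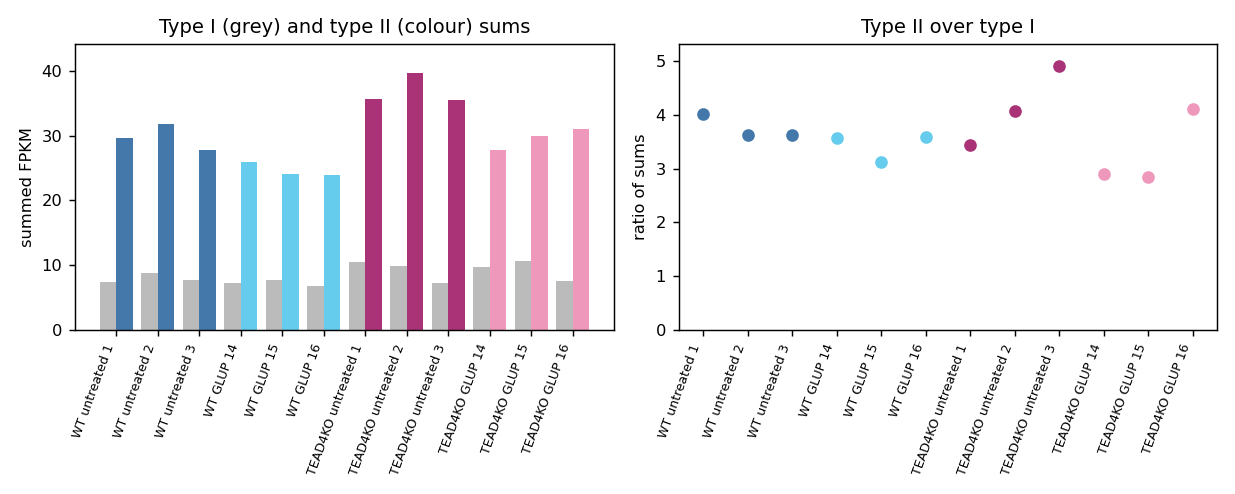
Left, summed FPKM of the type I (grey) and type II (coloured by group) members in each of the 12 libraries; right, the ratio of the 2 sums per library. Type II sums exceed type I sums throughout, with ratios from 2.84 to 4.92.

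KRT4 was lower with GLUP in both genotypes. In WT cells it measured 18.4, 20.6 and 16.7 FPKM untreated and 13.4, 13.1 and 11.96 FPKM after GLUP. In cells labelled TEAD4KO it measured 21.3, 21.8 and 20.8 FPKM untreated and 15.4, 17.1 and 17.2 FPKM after GLUP. Treated and untreated libraries did not overlap in either genotype, and the lowest group was WT with GLUP. Mean FPKM fell by 31% in WT and fell by 22.1% in cells labelled TEAD4KO, and on the log2(FPKM + 1) scale, which understates changes of low genes, the differences were -0.50 ± 0.08 (SE) and -0.34 ± 0.08. With genotype as a covariate, an analysis added after the data were seen, the difference over both genotypes was -0.42 ± 0.06. In these bulk libraries a smaller share of KRT4-expressing cells and less KRT4 RNA per cell cannot be told apart. Correcting the libraries for transcript length and GC content left -0.47 in WT and -0.32 in TEAD4KO.

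Ordered by group mean, KRT4 was highest in TEAD4KO untreated (21.3 ± 0.487 FPKM, SD, n = 3), followed by WT untreated (18.6 ± 1.97), TEAD4KO GLUP (16.6 ± 1.04) and WT GLUP (12.8 ± 0.755). Only the neighbours WT untreated (16.7 to 20.6 FPKM) and TEAD4KO GLUP (15.4 to 17.2 FPKM) overlapped.

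**Figure D3:**
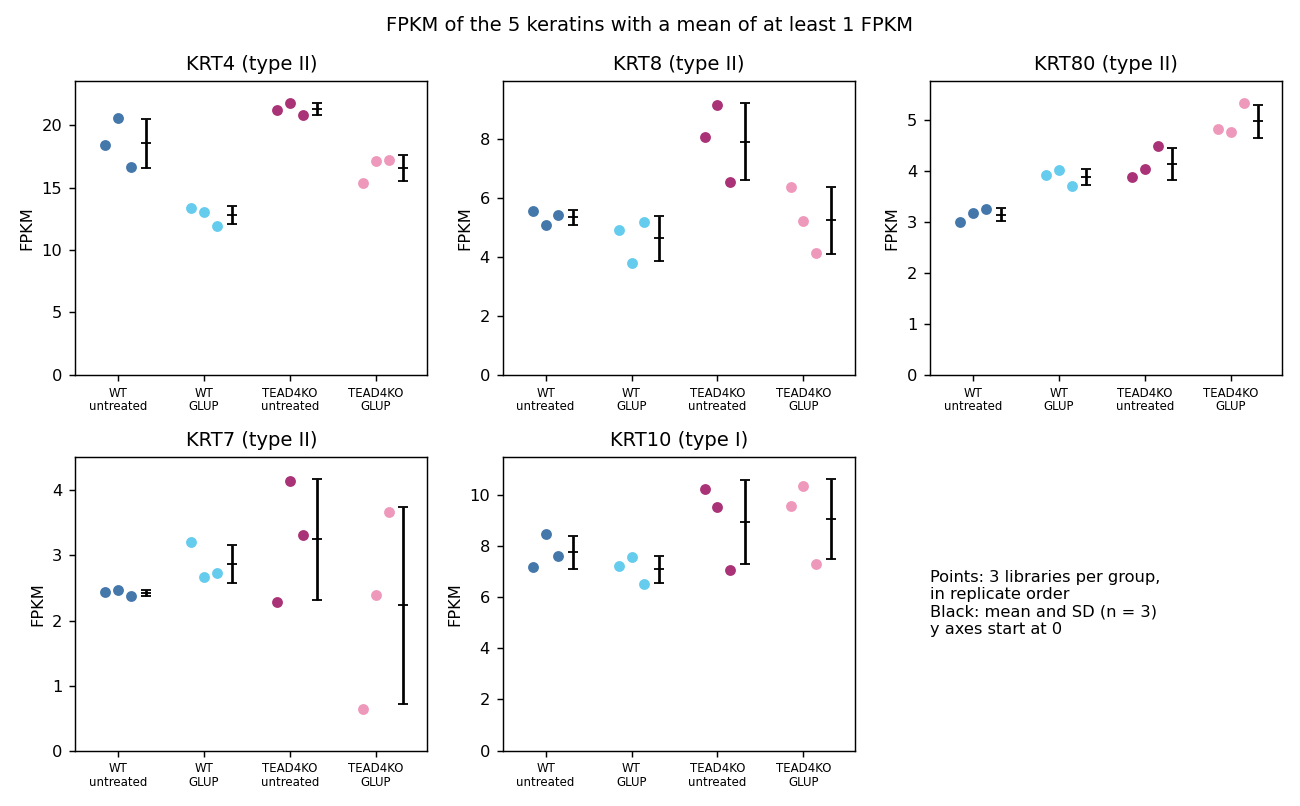
FPKM of KRT4, KRT8, KRT80, KRT7 and KRT10 in each library (points, in replicate order) with the group mean and SD (black, n = 3), on axes that start at 0. KRT4 is lower and KRT80 higher with GLUP in both genotypes without overlap, whereas KRT7 in TEAD4KO GLUP spreads from 0.644 to 3.66 FPKM.

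KRT80, a type II keratin found in many epithelia, moved the opposite way to KRT4 with GLUP. Its values were 2.99, 3.18 and 3.25 FPKM in WT untreated and 3.91, 4.02 and 3.70 FPKM in WT GLUP. Under the TEAD4KO label they were 3.88, 4.03 and 4.48 FPKM untreated and 4.81, 4.75 and 5.33 FPKM after GLUP. Treated libraries were the higher ones in both genotypes and did not overlap the untreated ones. Mean FPKM was 23.4% higher in WT and 20.2% higher in TEAD4KO, and the log2(FPKM + 1) differences were 0.24 ± 0.08 (SE) and 0.22 ± 0.08, the latter being 0.14 with TEAD4KO untreated replicate 1 and TEAD4KO GLUP replicate 16 both left out.

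KRT8, the simple-epithelial type II chain, separated by GLUP under the TEAD4KO label and overlapped in WT. WT libraries held 5.55, 5.07 and 5.41 FPKM untreated and 4.90, 3.78 and 5.20 FPKM after GLUP. These overlapped, with a log2(FPKM + 1) difference of -0.18 ± 0.14 (SE), which was -0.068 without WT GLUP replicate 15 and -0.26 without WT GLUP replicate 16. Libraries labelled TEAD4KO held 8.07, 9.13 and 6.52 FPKM untreated and 6.37, 5.21 and 4.12 FPKM after GLUP. Here every treated library was below every untreated one, although the closest pair (6.52 and 6.37 FPKM) nearly met, and the difference was -0.52 ± 0.14, or -0.37 with TEAD4KO untreated replicate 1 and TEAD4KO GLUP replicate 16 both left out. The KRT8 difference between these 2 GLUP effects, tested as the interaction in limma over all rows, was -0.34 ± 0.20 with an adjusted p of 0.9998, so the effects were not shown to differ between genotypes.

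KRT7, the type II keratin of ducts and simple epithelia, was the least stable of the tested members. It stood at 2.43, 2.47 and 2.38 FPKM in WT untreated and 3.20, 2.67 and 2.72 FPKM in WT GLUP. The WT groups did not overlap, but the log2(FPKM + 1) difference of 0.17 ± 0.28 (SE) was smaller than its error in the 4-group fit. That error includes the wider spread of the TEAD4KO libraries, and with only the WT groups fitted it was 0.077. TEAD4KO untreated libraries had 2.29, 4.15 and 3.31 FPKM and TEAD4KO GLUP libraries 0.644, 2.39 and 3.66 FPKM, with a difference of -0.50 ± 0.28. This GLUP difference was -0.072 without TEAD4KO GLUP replicate 14, -0.82 without replicate 16 and -0.997 with TEAD4KO untreated replicate 1 left out as well as replicate 16. The value of 0.644 FPKM in TEAD4KO GLUP replicate 14 was the lowest of all 12 libraries.

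KRT10, the type I keratin of upper epidermal layers and the only type I member above 1 FPKM, showed no separation by GLUP. Its WT values were 7.18, 8.46 and 7.59 FPKM untreated and 7.20, 7.56 and 6.51 FPKM after GLUP. In TEAD4KO libraries it was 10.2, 9.52 and 7.07 FPKM untreated and 9.55, 10.3 and 7.30 FPKM after GLUP. The groups overlapped in both genotypes, with log2(FPKM + 1) differences of -0.11 ± 0.13 (SE) and 0.020 ± 0.13, and the latter was 0.25 with TEAD4KO untreated replicate 1 and TEAD4KO GLUP replicate 16 both left out.

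Set against all rows, the fit gave few GLUP calls of any gene. A call was an adjusted p under 0.05 (limma, Benjamini-Hochberg over the 11225 rows that averaged 1 FPKM or more). In WT 0 of the 5 tested members and 0.00891% of all rows were called, and 2 members (KRT4 and KRT80) and 3.43% of rows had an unadjusted p under 0.05. In cells labelled TEAD4KO 0 of 5 members and 0.0445% of rows were called, and 3 members (KRT4, KRT8 and KRT80) and 6.38% of rows had an unadjusted p under 0.05. Groups did not overlap for 3 of 5 members in WT (17.3% of rows) and for 3 of 5 in TEAD4KO (6.83% of rows). KRT4 was lower without overlap in both genotypes, as were 0.659% of rows, and KRT80 was higher without overlap in both, as were 0.998% of rows. Since the GLUP values were known when the genes were chosen, nothing is read from these counts.

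For no tested member was the GLUP effect shown to depend on genotype. The interaction was called for 0 of 5 members and 0.00891% of rows by limma, and 0 of 5 members had an unadjusted p under 0.05, against 2.53% of rows. For KRT4 the GLUP effect was 0.16 ± 0.11 (log2, SE) less negative in cells labelled TEAD4KO than in WT, with an adjusted p of 0.9998 over all rows. This value is built from KRT4 levels with and without GLUP, which were known when the genes were listed.

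Libraries labelled TEAD4KO were next compared with WT, the comparison that asks what the label itself changed. Without GLUP, 1 of 5 tested members was called, KRT80, beside 5.42% of all rows. KRT80 was higher by 0.31 ± 0.08 (log2(FPKM + 1), SE) with an adjusted p of 0.0477 in limma, at 4.13 ± 0.311 FPKM against 3.14 ± 0.131 FPKM (SD, n = 3) with no overlap. This call was close to the limit, as the adjusted p ranged from 0.0159 to 0.165 over 23 alternatives and passed in 6, and it was 0.0547 after the length and GC correction. With 1 library left out at a time, the call held only without TEAD4KO untreated replicate 1 or TEAD4KO GLUP replicate 16. KRT4 and KRT8 were also higher without overlap and were not called. For KRT4 the difference was 0.19 ± 0.08 with an adjusted p of 0.178 (limma). For KRT8 it was 0.48 ± 0.14 with an adjusted p of 0.0674 (limma), mean FPKM being 48.1% higher. The adjusted p of KRT8 ranged from 0.0322 to 0.230 over 24 alternatives and passed in only 3. These were the fits without TEAD4KO untreated replicate 3 (0.0430), without TEAD4KO GLUP replicate 16 (0.0322), and without both the latter and TEAD4KO untreated replicate 1 (0.0381). Of the 5 members 3 did not overlap between these groups, beside 25.7% of rows. KRT7 (0.29 ± 0.28, adjusted p = 0.591, limma) and KRT10 (0.17 ± 0.13, adjusted p = 0.488, limma) overlapped.

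With GLUP in both genotypes, 1 of 5 members was called, KRT4, beside 5.84% of all rows. KRT4 was higher in the libraries labelled TEAD4KO by 0.35 ± 0.08 (log2(FPKM + 1), SE), with an adjusted p of 0.0231 in limma and no overlap between 15.4 to 17.2 FPKM and 11.96 to 13.4 FPKM. This comparison shares its libraries with the GLUP comparisons whose KRT4 values were known when the genes were listed. The adjusted p was 0.0240 with replicate number as a block (under which 1064 rows were called in place of 656), 0.0376 after the length and GC correction and 0.0654 with both, and it lay between 0.0512 and 0.114 without WT GLUP replicate 14, 15 or 16 or TEAD4KO GLUP replicate 15.

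KRT80 was higher by 0.29 ± 0.08 without overlap and was not called (adjusted p = 0.0573, limma), and it passed in 7 of 23 alternatives. KRT10 was 0.30 ± 0.13 higher with overlap (adjusted p = 0.187, limma), and it passed in 2 of 24 alternatives (adjusted p from 0.0142 to 0.482). With 1 library left out at a time the KRT10 difference ranged from 0.21 to 0.44, and 1 of 12 fits passed. That fit left out TEAD4KO GLUP replicate 16, whose 7.30 FPKM was the lowest of its group (0.44 higher, adjusted p = 0.0339, limma). KRT8 overlapped between the genotypes under GLUP (0.14 ± 0.14, adjusted p = 0.573, limma). The KRT7 difference was -0.38 ± 0.28 (adjusted p = 0.424, limma), and it became 0.043 when TEAD4KO GLUP replicate 14 was left out and -0.71 when replicate 16 was. Groups did not overlap for 2 of 5 members, KRT4 and KRT80, beside 29.5% of rows.

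**Figure D4:**
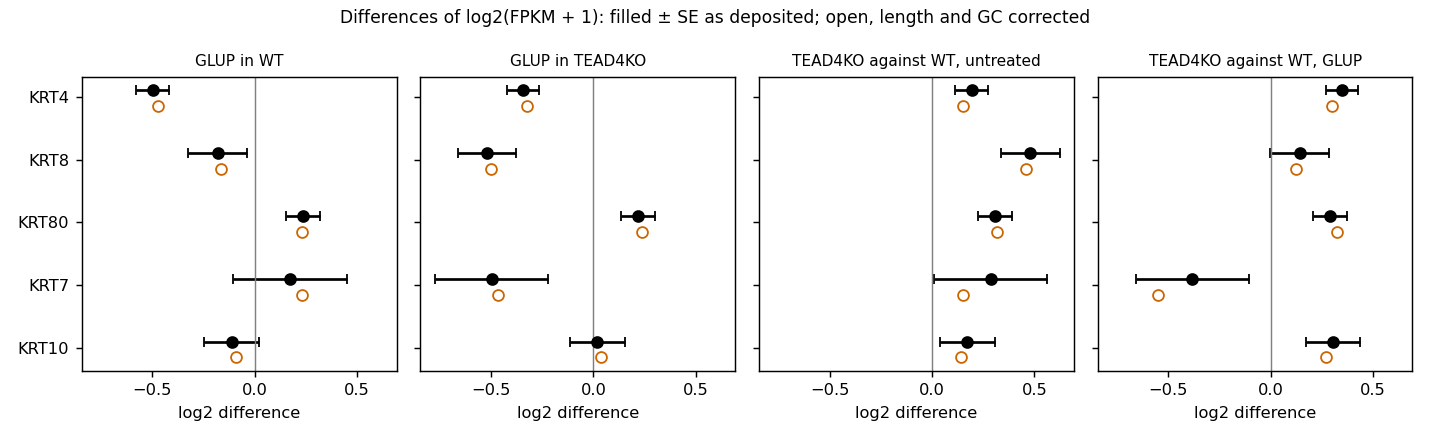
Differences of log2(FPKM + 1) for the 5 tested keratins in the 4 comparisons, as filled points with SE from the fit, and open points after the length and GC correction. KRT4 is negative and KRT80 positive in both GLUP panels, and both are positive in both TEAD4KO panels.

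A call together with a 2-fold change was made for 0 of 5 members in each of these 4 comparisons (limma), beside 0% of rows for GLUP in WT, 0.00891% for GLUP in TEAD4KO, 0.0356% for TEAD4KO against WT untreated and 0.0535% for that comparison with GLUP. Each GLUP comparison shares libraries with each comparison between genotypes, so those values for a gene are not independent of each other. Summed fibroblast markers ranged from 367 to 386 FPKM in WT untreated, 380 to 420 in WT GLUP, 337 to 427 in TEAD4KO untreated and 300 to 383 in TEAD4KO GLUP, and the 17 gastric epithelial markers summed to 14.99 to 16.6, 14.9 to 17.4, 13.0 to 17.6 and 12.9 to 17.5 FPKM in the same order. Most of that sum was MUC1. CDH1, the adhesion molecule of epithelial cells, was lower with GLUP in WT, at 2.99 to 3.68 against 2.04 to 2.43 FPKM (-0.42 ± 0.11, log2, SE, adjusted p = 0.636, limma). These CDH1 groups did not overlap, beside 17.3% of rows in either direction. Under the TEAD4KO label CDH1 overlapped, at 2.76 to 3.51 FPKM untreated and 2.07 to 2.79 FPKM with GLUP (-0.21 ± 0.11). In WT the differences of MUC1 and CLDN7 were 0.16 ± 0.11 and 0.17 ± 0.12. The part of these markers in the keratin values was not tested.

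Genes whose pattern was most like KRT4 over the 12 libraries, by Pearson correlation of log2(FPKM + 1) among 11076 named rows, included OLR1 (r = 0.973), SCARA3 (0.937), ALPP (0.899) and HACD1 (0.898). These are a receptor for oxidized lipoprotein, a scavenger-receptor family member, placental alkaline phosphatase and an enzyme of fatty acid elongation. The points share the 4 groups of libraries, and with the group means removed the r values of these 4 ranged from 0.207 for HACD1 to 0.856 for OLR1. OLR1 measured 4.71 ± 0.604 FPKM (SD, n = 3) in WT untreated, 3.02 ± 0.332 in WT GLUP, 5.71 ± 0.0238 in TEAD4KO untreated and 3.81 ± 0.338 in TEAD4KO GLUP, which is the same order of groups as for KRT4. ALPP has near-identical paralogs, so its level is uncertain. None of the other keratins was near the top of this ranking, where KRT8 stood at 565 (r = 0.638), KRT10 at 1858 (0.476), KRT7 at 4059 (0.195) and KRT80 at 5998 (-0.064).

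**Figure D5:**
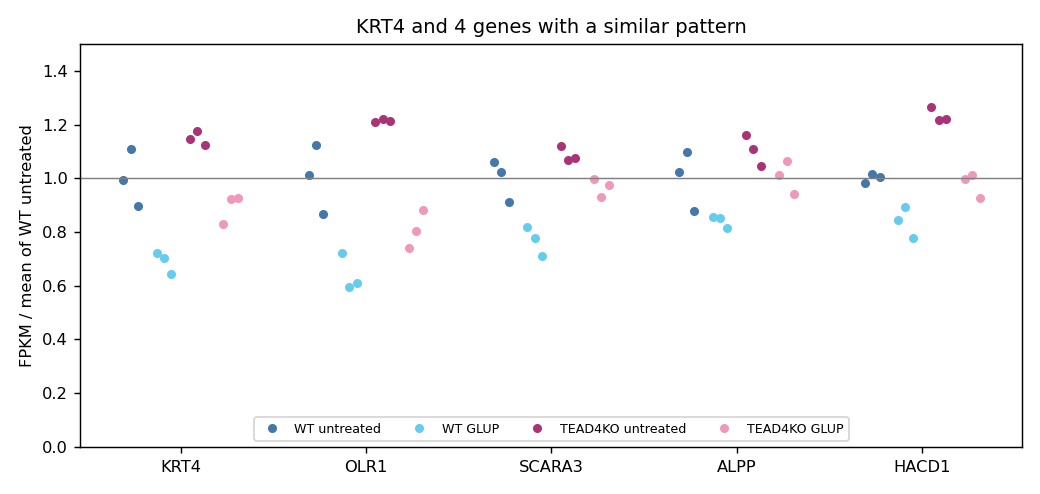
FPKM of KRT4 and 4 genes with a similar pattern in each library, divided by the mean of the 3 WT untreated libraries of the same gene, coloured by group. For KRT4 and OLR1 the WT GLUP libraries lie lowest and the TEAD4KO untreated libraries highest.

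Genes that anchor or accompany keratins were read from lists chosen by function. Of the keratin anchoring genes, the desmosome and hemidesmosome components, 9 of 21 in the table were tested, and 0 were called with GLUP in either genotype by limma, with 0 at an unadjusted p under 0.05, beside 0.00891% and 0.0445% of rows called and 3.43% and 6.38% at that p in WT and TEAD4KO. CD151, a tetraspanin of laminin-binding integrin complexes, was the only one of the 9 called between genotypes (5.42% of rows untreated and 5.84% with GLUP), higher under the TEAD4KO label by 0.26 ± 0.06 (log2, SE, adjusted p = 0.0253) untreated and 0.31 ± 0.06 (adjusted p = 0.00941) with GLUP, and the values were 0.12 (adjusted p = 0.240) and 0.14 (adjusted p = 0.157) after the length and GC correction. With 1 library left out, the CD151 call ended 4 times in 12 untreated and 2 times in 12 with GLUP. The median difference of the 9 was -0.12 untreated and -0.13 with GLUP, beside 0.023 and -0.0039 over all rows. After the length and GC correction the middle values were smaller, at -0.043 untreated (DSP) and -0.053 with GLUP (DSG2). Over all rows the corrected medians were 0.03 and 0.0075.

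Of 20 stratified epithelium genes, which mark the layers where KRT4 is usually found, 4 averaged 1 FPKM or more and were tested, and IVL and CRNN, genes of the same layers, were listed at 0 in all 12 libraries. With GLUP 0 of the 4 were called in either genotype (limma, 0.00891% of rows in WT and 0.0445% in TEAD4KO). In each genotype 1 had an unadjusted p under 0.05, beside 3.43% and 6.38% of rows. TGM1, the enzyme that cross-links the envelope of these cells, had an adjusted p of 0.515 in WT and 0.339 in TEAD4KO (limma). It was the 1 gene called over both genotypes (0.303% of rows), a contrast added after the data were seen. TGM1 differed there by -0.31 ± 0.05 (log2, SE, adjusted p = 0.0248 in limma), though leaving 1 library out ended this call 9 times in 12 (adjusted p from 0.0310 to 0.0929 over those fits). Its means were 4.91 ± 0.340 FPKM (SD, n = 3) in WT untreated, 3.74 ± 0.214 in WT GLUP, 5.96 ± 0.201 in TEAD4KO untreated and 4.63 ± 0.235 in TEAD4KO GLUP. Between genotypes 0 of the 4 were called with or without GLUP in limma (5.42% and 5.84% of rows). Each time 2 had an unadjusted p under 0.05, beside 21.7% of rows without and 23.9% with GLUP. After the length and GC correction EMP1 was called in both comparisons, and TGM1, SFN and ECM1 in neither. EMP1 was then higher under the TEAD4KO label by 0.28 (adjusted p = 0.0354, limma) without GLUP and 0.33 (adjusted p = 0.0184) with GLUP. Before the correction these differences were 0.21 (adjusted p = 0.115, limma) and 0.24 (adjusted p = 0.0663). The median difference of the 4 was -0.029 for GLUP over both genotypes, beside -0.0040 over all rows, and 0.22 without and 0.19 with GLUP for TEAD4KO against WT, beside 0.023 and -0.0039.

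Among 21 regulators of epithelial state 10 were tested. These included ZEB1, ZEB2, SNAI1, SNAI2 and TWIST1, which act against epithelial genes, and the receptor NOTCH1, so the list mixes opposed classes. The epithelial factors TP63, GRHL1, GRHL2, GRHL3, ELF3, EHF, OVOL1 and OVOL2 averaged under 1 FPKM and were not tested. KLF4, a factor of epithelial differentiation, was lower in the libraries labelled TEAD4KO than in WT under GLUP, with a difference of -0.51 ± 0.09 (log2, SE, adjusted p = 0.00515 in limma), at 2.59 ± 0.304 FPKM against 4.12 ± 0.305 (SD, n = 3). It was the 1 of the 10 called there, beside 5.84% of rows, and 3 had an unadjusted p under 0.05, beside 23.9% of rows. HES1, a Notch target, was higher under the TEAD4KO label without GLUP by 0.37 ± 0.09 (adjusted p = 0.0315, limma). It was the 1 of the 10 called without GLUP, beside 5.42% of rows, and 2 had an unadjusted p under 0.05, beside 21.7% of rows. Leaving 1 library out ended the HES1 call 3 times in 12 (highest adjusted p 0.172) and never that of KLF4. HES1 also missed the limit with no filter (adjusted p = 0.0615), median-ratio scaling (0.0646), quantile normalization (0.0646) and only the groups compared (0.0846). With GLUP 0 of the 10 genes were called in either genotype (limma, 0.00891% of rows in WT and 0.0445% in TEAD4KO), and 0 in WT and 1 in TEAD4KO had an unadjusted p under 0.05, beside 3.43% and 6.38% of rows. The median difference of the 10 for TEAD4KO against WT under GLUP was 0.031, beside -0.0039 over all rows. Among 14 other intermediate filament genes 7 were tested, and LMNA, a lamin of the nuclear envelope, was higher under the TEAD4KO label without GLUP by 0.33 ± 0.09 (adjusted p = 0.0459, limma), and 0.28 (adjusted p = 0.0906) after the length and GC correction. It was the 1 of the 7 called in that comparison, beside 5.42% of rows, and 4 had an unadjusted p under 0.05, beside 21.7% of rows. Leaving out 1 library ended the LMNA call in 8 of 12 fits (highest adjusted p 0.184). The median of the 7 in that comparison was 0.14, beside 0.023 over all rows. The fibroblast marker PDGFRA, a growth factor receptor, was higher with GLUP over both genotypes by 0.30 ± 0.05 (adjusted p = 0.0285, limma), a call lost in 9 of the 12 fits without 1 library (highest adjusted p 0.0834). That contrast, which called 0.303% of rows, was added after the data were seen. PDGFRA was not called in WT (adjusted p = 0.999, limma) or in TEAD4KO (adjusted p = 0.153).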

How the data were processed

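RNA was measured in 12 HGC-27 libraries in 4 groups of 3. The authors ran the reads through an online cloud service and deposited FPKM for each Ensembl gene in each library. The submitters' processing notes name HISAT2, Cufflinks, RSEM and hg19 without their roles. FPKM keeps no depth, so error is the spread between replicates, and length or GC bias of a library stays in the values. Values were analysed as log2(FPKM + 1), pseudocount 1, for the 11225 rows averaging 1 FPKM or more. One 4-group model was fitted with limma 3.58.1 in R 4.3.3 (lmFit, eBayes with trend), two-sided, with Benjamini-Hochberg adjustment over all rows in each comparison, and was tested on simulated data. A pooled GLUP contrast with genotype as covariate was added after seeing the data. Symbols matched 96.5% of rows, and positions are from GENCODE on GRCh37. Members and lists were chosen with earlier results of these data known. Named genes were all 10 members, other keratins with a mean of at least 1 FPKM, called genes of each list (at most 3 per direction and comparison), the 5 rows most correlated with KRT4 (1 is not reported here), and TEAD4. Partner keratins, KRT17, uncalled markers and other uncalled genes of the lists were named after their values were seen. Immune and endothelial markers were also listed, with 1 of 5 and 0 of 2 tested and 0 called in limma (0 at an unadjusted p under 0.05). Replicate numbers 14 to 16 went together across genotypes (r of residuals 0.106, 0.152 and 0.336), and were taken as paired since each r was over 0.1, while 1 to 3 were not, since not every r was (-0.0569, 0.203 and -0.0149). The 4-group model nevertheless had no block, and the replicate block, run as an alternative, covered numbers 1 to 3 as well as 14 to 16. No fit blocked 14 to 16 alone.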

Additional observations from a re-analysis of the deposited data

How the results depend on the processing

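Scaling, filter, pseudocount, correction, block, pooling of KRT81 with KRT86 and leaving out libraries were varied. GLUP in either genotype and the interaction gave 0 called members in every alternative. For TEAD4KO against WT without GLUP the count of called members was 1, beside 608 rows called. It was 0 with no filter (394 rows called), a mean of at least 5 FPKM (703, where KRT80 was not tested), median-ratio scaling (453) and quantile normalization (603). It was also 0 with the length and GC correction (456), only the groups compared (382), the replicate block (849), and the block with the correction (379). It was 2 (KRT8 and KRT80) with TEAD4KO untreated replicate 1 and TEAD4KO GLUP replicate 16 both left out (2231 rows called). When 1 library was left out it was 0 to 2 (119 to 1186 rows called). For the same comparison with GLUP the count was 1, beside 656 rows called. It became 2 (KRT4 and KRT80) with quantile normalization (809 rows called), the correction (476) or eBayes without trend (518), and 0 with the block and the correction together (473). With both libraries left out it became 4 (KRT4, KRT7, KRT10 and KRT80), but rows called also rose to 3121. When 1 library was left out it was 0 to 2 (196 to 1952 rows called). The cause was not tested. Of the reversed differences, the KRT80 interaction of -0.018 became 0.0029 with median-ratio scaling, 0.034 with quantile normalization, and 0.010 with the correction, alone or with the block, and the KRT10 difference with GLUP over both genotypes of -0.046 became 0.032 with both libraries left out. When 1 library was left out, KRT10 ranged from -0.12 to 0.15 (GLUP in TEAD4KO), -0.12 to 0.0054 (GLUP over both) and -0.011 to 0.26 (interaction), KRT7 from -0.71 to 0.043 (TEAD4KO against WT with GLUP) and -0.27 to 0.063 (GLUP over both), and the KRT80 interaction from -0.062 to 0.030. The block changed no other member's call. Rows called without GLUP ranged from 119 (without WT untreated replicate 3) to 2231 (both libraries left out), and with GLUP from 196 (without WT GLUP replicate 16) to 3121 (both left out). Of the called rows 90.8% were higher without GLUP and 84.0% with GLUP, and 59.2% and 63.0% under quantile normalization. Depth is unknown, so the 5 members below 1 FPKM cannot be compared between groups with a stated precision.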
